A study of Mus musculus with 10 samples.

Results

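The genes described here are the collagen alpha chain genes and the laminin chain genes of mouse mammary carcinoma lines. They were taken from the deposited gene table by name alone, as every row named Col, a number, a and a number, or Lama, Lamb or Lamc and a digit. The rule found 55 of the 55417 named genes: 44 collagen and 11 laminin genes. Of the collagens 11 form fibrils, 6 are the type IV chains of basement membranes and 27 are of other types. RNA was sequenced from 10 cell lines, with 1 library each. The metastasis lines (3, 5 and 7), the CTC lines (1, 3 and 6) and the primary lines (5, 7 and 8) were grown from lung metastases, from circulating tumour cells and from fat pad tumours of immunodeficient NOD-SCID-GAMMA mice. Per the labels, all 9 descend from circulating cells of earlier NSG mice that had been inoculated orthotopically with 4T1-hHER2-Luc. Whether host cells remained in the lines is not stated. The parental line is 4T1-hHER2, mouse mammary carcinoma cells, labelled BALB/cfC3H, in which a lentivirus stably expresses human HER2 and luciferase. Each library thus stands for 1 line, and the parental group has no replicate. Whether lines with the same number came from the same mouse is not stated in the labels.

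Collagens are secreted chains that wind around each other into helical trimers. Fibrillar collagens (types I, II, III, V, XI, XXIV and XXVII) give tissue its tensile fibres, and in tumours most of them come from fibroblasts rather than from carcinoma cells. Type IV collagen and laminins form the sheet-like networks of the basement membrane that underlies epithelia. A laminin is a trimer of an alpha, a beta and a gamma chain: Lama5, Lamb1 and Lamc1 encode the chains of a widespread epithelial laminin, and Lama3 and Lamb3 chains of the laminin that anchors epithelium through hemidesmosomes.

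The 6 type IV genes sit in pairs that face away from each other across a short start region. Promoters of 2 pairs are shown because the ratio of their levels, described below, spread differently over the libraries. The windows are from RefSeq on GRCm38.p6 and run from 250 bases before to 50 bases after a start, 5′ to 3′ on the strand of the gene. For Col4a1 and Col4a2 the windows overlap by 78 bases, printed in capitals. 
Col4a1 (chr8:11312777-11313076, minus strand): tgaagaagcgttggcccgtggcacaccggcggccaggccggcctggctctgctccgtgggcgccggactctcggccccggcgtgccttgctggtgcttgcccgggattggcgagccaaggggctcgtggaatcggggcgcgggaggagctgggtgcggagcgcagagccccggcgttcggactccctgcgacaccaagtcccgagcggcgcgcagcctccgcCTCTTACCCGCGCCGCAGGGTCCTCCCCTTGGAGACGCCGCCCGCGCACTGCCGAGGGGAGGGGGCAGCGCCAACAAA
Col4a2 (chr8:11312555-11312854, plus strand): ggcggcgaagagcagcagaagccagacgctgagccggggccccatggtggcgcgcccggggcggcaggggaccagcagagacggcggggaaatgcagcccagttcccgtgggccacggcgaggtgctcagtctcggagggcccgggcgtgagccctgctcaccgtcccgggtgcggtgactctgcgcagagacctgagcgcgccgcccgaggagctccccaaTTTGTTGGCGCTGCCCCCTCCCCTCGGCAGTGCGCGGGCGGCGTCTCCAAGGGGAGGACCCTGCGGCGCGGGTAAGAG
For Col4a6 and Col4a5 the windows lie 842 bases apart, and the capitals mark each GC box (GGGCGG) and CCAAT box (CCAAT) on either strand. 
Col4a6 (chrX:141474027-141474326, minus strand): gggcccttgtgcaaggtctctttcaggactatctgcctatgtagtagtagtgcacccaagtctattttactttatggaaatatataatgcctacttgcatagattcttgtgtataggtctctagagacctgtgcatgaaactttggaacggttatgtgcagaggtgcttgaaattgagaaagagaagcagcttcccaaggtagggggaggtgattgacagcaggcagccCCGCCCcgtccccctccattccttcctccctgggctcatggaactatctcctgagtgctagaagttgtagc
Col4a5 (chrX:141475169-141475468, plus strand): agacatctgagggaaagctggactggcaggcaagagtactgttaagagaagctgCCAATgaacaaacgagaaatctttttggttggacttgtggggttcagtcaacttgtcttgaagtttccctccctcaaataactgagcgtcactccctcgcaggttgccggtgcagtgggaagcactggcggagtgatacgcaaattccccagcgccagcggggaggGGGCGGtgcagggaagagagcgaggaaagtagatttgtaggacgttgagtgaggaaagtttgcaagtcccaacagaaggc
The Col4a1 and Col4a2 windows were 74.0% and 73.7% G or C, and those of Col4a6 and Col4a5 48.3% and 52.7%, beside a median of 52.7% over all 32851 promoters of the same length. GGGCGG occurred in 59.1% of the 44 windows found for 40 of the genes and in 35.7% of all promoters. CCAAT occurred in 31.8% of these windows and in 37.4% of all. TATAAA, searched on both strands as well, occurred in 11.4% and 13.6%. Each motif was counted on its own, so matches that overlap count for both, and a match describes the sequence only.

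The total estimated count was 79869760 to 97722716 per library, of which named genes took 63275645 to 77476609. Levels are CPM, the share of a library's counts after scaling between libraries, and 3 counts correspond to 0.039 to 0.0465 CPM. Epithelial markers summed to 1284 to 2932 CPM in metastasis, 1554 to 2681 in CTC and 2149 to 3868 in primary lines and 1699 CPM in the parental library. Of markers of other cells, the 10 fibroblast genes, no collagen among them, summed to 74.5 to 416 CPM in metastasis, 214 to 463 in CTC and 213 to 389 in primary lines and to 199.9 CPM in the parental library, mostly from Gsn and Pdgfra. Of these 10, 5 reached 1 CPM in any library, while Lum, Dpt, Mfap5, Thy1 and Fap did not. The 8 endothelial markers summed to 90.5 to 196 CPM, mostly Eng, with Emcn at no count. The 7 pericyte and smooth muscle markers summed to 1.74 to 20.8 CPM in metastasis, 0.627 to 1.24 in CTC and 0.234 to 16 in primary lines and to 1.6 CPM in the parental library. Of these, Pdgfrb was at 18.7 CPM in metastasis 5 and 15.3 CPM in primary 5 and at or below 1.23 CPM elsewhere. Blood cell, lung epithelial and adipocyte markers summed to at most 7.61, 4.8 and 0.316 CPM, with Sftpc and Sftpa1 at no count. In bulk RNA, fewer cells of a type and less RNA per cell cannot be told apart.

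The lines expressed a basement membrane set rather than a fibre set. Summed over the 55 genes, the level was 3182 to 5800 CPM in metastasis, 3557 to 5643 in CTC and 3650.1 to 5268 in primary lines and 4069 CPM in the parental library, which is 0.34% to 0.61% of the counts of named genes. Laminins held 49.4% to 63.1% of this sum over the 10 libraries, type IV collagens 15.1% to 30.4%, other collagens 14.1% to 22.1% and fibrillar collagens 1.25% to 3.55%. Divided by gene length (the union of exons), laminins held 48.0 ± 7.00% of the sum in metastasis, 49.0 ± 5.51% in CTC and 52.5 ± 4.96% in primary lines (SD, n = 3 each) and 52.7% in the parental library. All 4 classes overlapped between the 3 derived groups in their summed CPM.

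**Figure D1:**
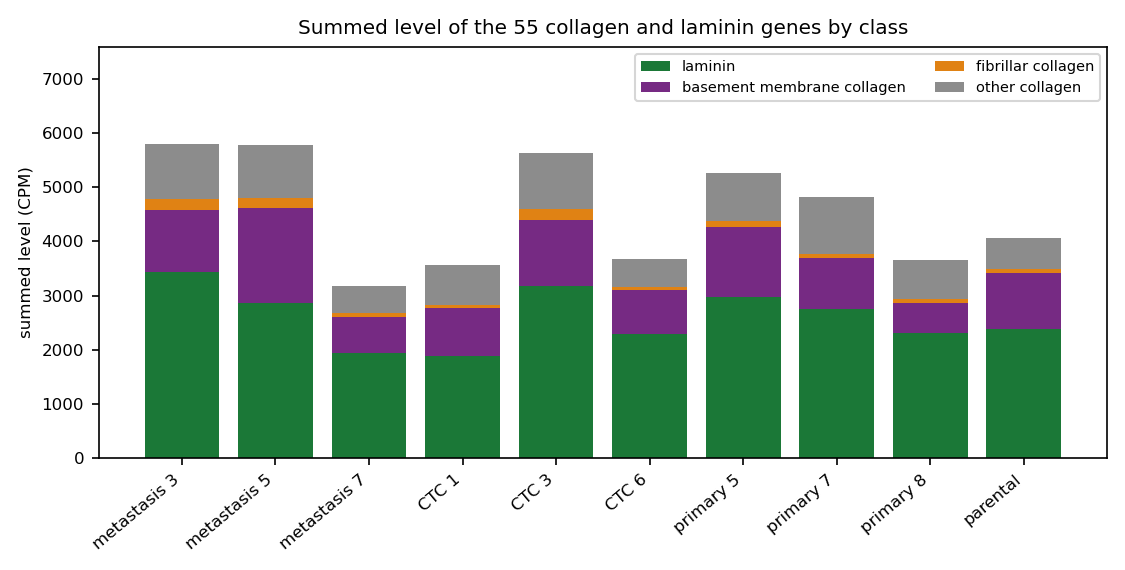
Summed level of the 55 collagen and laminin genes in each library, in CPM, stacked by class. Metastasis 3 and 5, CTC 3 and primary 5 have the highest sums (5268 to 5800 CPM), and each derived group also holds a library between 3182 and 3667 CPM.

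Every gene is accounted for by its highest level. No count was found in any library for 7 (Lama1, Col6a6, Col9a1, Col13a1, Col19a1, Col22a1 and Col26a1). Another 16 stayed under 1 CPM, 32 reached 1 CPM, 24 reached 5 CPM and 14 reached 100 CPM. Only 7 were at 100 CPM or more in every library: Lama5, Lamb1, Lamc1, Col4a1, Col4a2, Col8a1 and Col18a1. Per kb of transcript and averaged over the 10 libraries, the order of the genes described here was Lama5 (104 CPM per kb), Lamb1 (99.6), Col4a1 (91.6), Lamc1 (64.7), Col18a1 (61.5), Col4a2 (58.0), Col8a1 (49.2), Col6a1 (23.8), Col7a1 (12.9) and Col5a1 (11.4). The SD over libraries was 34.8 CPM per kb for Lama5 and 30.02 for Lamb1, and from Lama5 to Col5a1 each neighbouring pair lay closer than the larger of its SDs, except Col8a1 and Col6a1 (SD 17.3 and 23.5 CPM per kb). With the union of exons as length, Lamb1 ranks 4 instead of 2, behind Col4a1 and Lamc1.

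**Figure D2:**
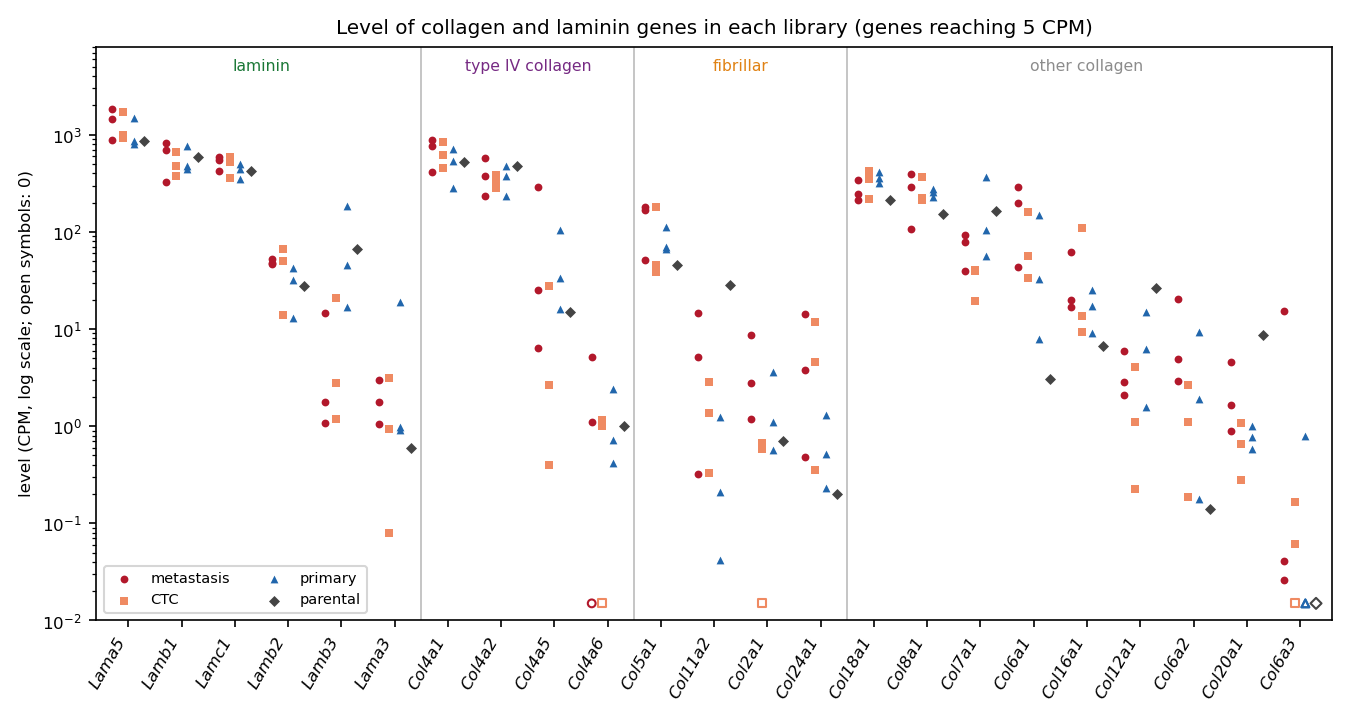
Level of genes that reached 5 CPM, by class, with 1 point per library on a log axis in CPM and open symbols for a count of 0. Lama5, Lamb1, Lamc1, Col4a1, Col4a2, Col8a1 and Col18a1 stay within a narrow band, while Lamb3, Col4a5, Col11a2, Col24a1, Col6a1 and Col6a2 spread over more than 10-fold within the derived lines.

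Lama5 (chr2:180176373-180225859, GRCm38, as are all gene positions here), which encodes the laminin alpha5 chain, was the most abundant member, at 1827, 1442 and 879.6 CPM in metastasis 3, 5 and 7, 982, 1732 and 925 CPM in CTC 1, 3 and 6, 1474, 796 and 871 CPM in primary 5, 7 and 8, and 871 CPM in the parental library. Its partner Lamb1 was at 831, 694 and 324 CPM in metastasis 3, 5 and 7, 377, 666 and 473 CPM in CTC 1, 3 and 6, 764, 442 and 482 CPM in primary 5, 7 and 8, and 589.7 CPM in the parental library. Lamc1, the gamma1 chain gene, was at 595, 547 and 425 CPM in metastasis 3, 5 and 7, 358, 584 and 529.7 CPM in CTC 1, 3 and 6, 500.3, 439.8 and 353 CPM in primary 5, 7 and 8, and 427 CPM in the parental library. These 3 chains of 1 trimer varied little: the highest library exceeded the lowest by 2.29-fold for Lama5, 2.56-fold for Lamb1 and 1.69-fold for Lamc1, the narrowest range of the 21 members that reached 5 CPM and had counts in every library. Per kb, Lamb1 stood at 0.745 to 1.34 times Lama5 and Lamc1 at 0.489 to 0.892 times Lama5. Among the 210 pairs of those 21 members, the 3 pairs within this trimer had the steadiest ratios, with an SD of the log2 ratio over 10 libraries of 0.27 for Lama5 and Lamb1, 0.31 for Lamb1 and Lamc1 and 0.31 for Lama5 and Lamc1. The next were Lama5 with Col4a1 (0.32), Lamb1 with Col4a2 (0.33) and Col4a1 with Col4a2 (0.34). Genes that vary little also give steady ratios. Alone, Lamc1, Lamb1 and Lama5 had an SD of the log2 level of 0.27, 0.45 and 0.46, and whether they vary together was not tested.

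The Lamb3 and Lama3 chains of the hemidesmosomal laminin varied far more. Lamb3 (chr1:193207699-193343878), the beta3 chain gene, was at 1.09, 1.76 and 14.5 CPM in metastasis 3, 5 and 7, 2.77, 1.18 and 20.9 CPM in CTC 1, 3 and 6, 16.8, 184 and 45.4 CPM in primary 5, 7 and 8, and 66.2 CPM in the parental library. All 3 primary lines and the parental library lay above all 3 metastasis lines, whereas CTC 6 lay above primary 5. Lama3, the alpha3 chain gene, was at 0.08 to 3.11 CPM in 9 libraries and at 18.9 CPM in primary 7, the library in which Lamb3 was also highest. Per kb, Lamb3 exceeded Lama3 in every library, by 2.17-fold (metastasis 5) to 292-fold (parental).

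Of the remaining laminins, Lamb2, a beta chain of vessel and muscle basement membranes, was at 46.9, 52.4 and 47.3 CPM in metastasis 3, 5 and 7, 66.3, 49.6 and 13.9 CPM in CTC 1, 3 and 6, 42.2, 31.8 and 12.9 CPM in primary 5, 7 and 8, and 27.9 CPM in the parental library. The metastasis lines were close together, and CTC 6 and primary 8 were lowest. Lama2, Lama4 and Lamc3 never exceeded 0.329 CPM, and Lama1 had no count.

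Among the type IV chains, Col4a1 was at 759.9, 887 and 411 CPM in metastasis 3, 5 and 7, 611, 847 and 453 CPM in CTC 1, 3 and 6, 720.4, 541 and 286 CPM in primary 5, 7 and 8, and 530.0 CPM in the parental library. Col4a2, which joins Col4a1 in the usual type IV trimer, was at 372, 576 and 232 CPM in metastasis 3, 5 and 7, 279.8, 388 and 333 CPM in CTC 1, 3 and 6, 473, 374 and 232 CPM in primary 5, 7 and 8, and 480.0 CPM in the parental library. The groups overlapped for both. Per kb, Col4a1 was 1.08 to 2.13 times Col4a2, lowest in the parental library and highest in CTC 3 and CTC 1. The annotated transcripts of the pair overlap by 22 bases at their starts, and no source used here states whether counting heeded the strand of a read, so reads from that stretch could fall to either gene. Col4a5 (chrX:141475385-141689234), an X-linked chain of kidney and epithelial basement membranes, was far more variable, at 6.38, 292 and 25.1 CPM in metastasis 3, 5 and 7, 2.64, 0.403 and 27.8 CPM in CTC 1, 3 and 6, 104, 16 and 33.4 CPM in primary 5, 7 and 8, and 14.8 CPM in the parental library. Metastasis 5 was highest and primary 5 next, and CTC 3 and 1 and metastasis 3 were lowest, a 724-fold range. Col4a6, which starts 1308 bases from Col4a5 on the other strand, reached 5.18 CPM in metastasis 5 and 2.43 CPM in primary 5, also its highest libraries, but was at 0 to 1.16 CPM elsewhere. Metastasis 5 and primary 5 were likewise the highest libraries of the pericyte marker Pdgfrb, as they were of Col2a1, Col6a2 and Col6a3 described below. The rest of that marker list was mixed: Rgs5 had no count in either line, and Notch3 was highest in metastasis 5 (1.29 CPM). Cspg4 was highest in metastasis 7 (1.16 CPM), Acta2 in primary 7 (0.723 CPM), Myh11 in the parental library (0.708 CPM) and Des in metastasis 3 (0.393 CPM). The part of such cells was not tested. Per kb, Col4a5 was 2.31 to 56.9 times Col4a6 in the 8 libraries with counts for Col4a6. The ratio of the facing Col4a1 and Col4a2 had an SD of 0.34 on the log2 scale over 10 libraries, and that of the facing Col4a5 and Col4a6 an SD of 1.5 over 8. The second SD rests largely on CTC 1, with a ratio of 2.31. The other libraries with counts ran from 15.3 (parental) to 56.9 (metastasis 5). Col4a3 and Col4a4, which face each other as well, stayed at or below 0.765 CPM.

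**Figure D3:**
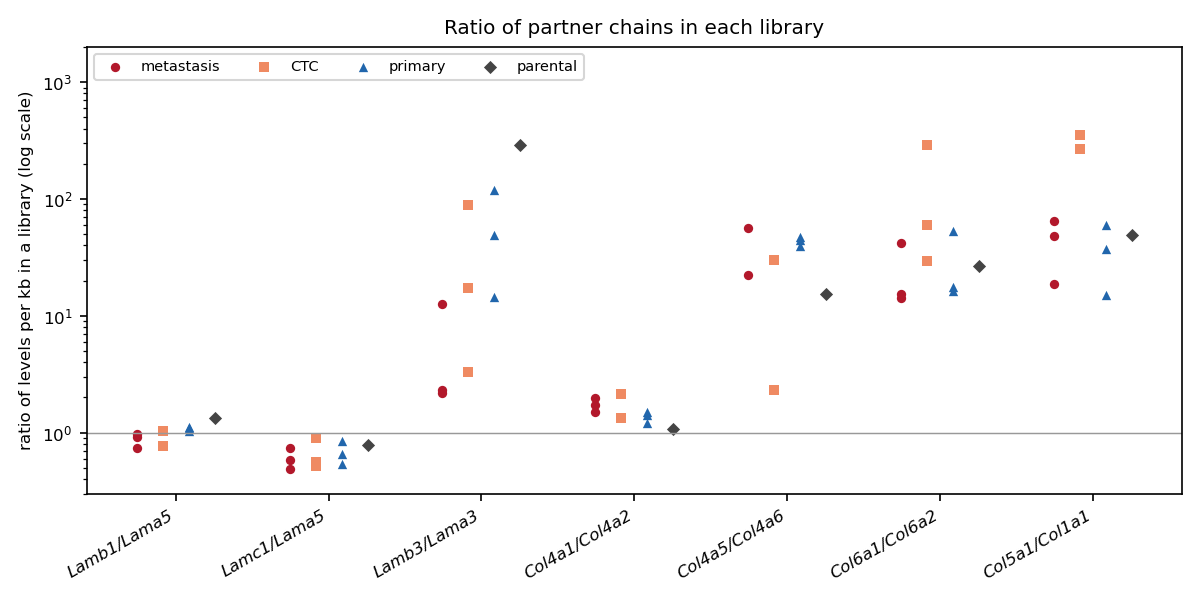
Ratio of partner genes per library, as levels per kb on a log axis, 1 point per library and no point where the second gene had no count. The ratios of Lamb1 and Lamc1 to Lama5 and of Col4a1 to Col4a2 stay between 0.489 and 2.13, while Lamb3 to Lama3 runs from 2.17 to 292 and Col6a1 to Col6a2 from 14.1 to 291.

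The fibrillar class was carried by Col5a1 (chr2:27886425-28039514), the chain of type V collagen that regulates fibril width. It was at 182, 166 and 51.2 CPM in metastasis 3, 5 and 7, 39, 179.7 and 46 CPM in CTC 1, 3 and 6, 113, 66.1 and 70.5 CPM in primary 5, 7 and 8, and 45.6 CPM in the parental library. Metastasis 3 and 5 and CTC 3 were highest and each derived group held a line of 70.5 CPM or less, so the groups overlapped. The genes of its usual partners were nearly silent: Col5a2 was at 0.524, 0.104 and 1.13 CPM in metastasis 3, 5 and 7, at 0 in all 3 CTC lines, at 0, 0.0658 and 0 CPM in primary 5, 7 and 8 and at 0 in the parental library. Col1a1 (chr11:94936224-94953042), the main chain of type I collagen, was at 0.995, 2.08 and 1.58 CPM in metastasis 3, 5 and 7, 0, 0.356 and 0.122 CPM in CTC 1, 3 and 6, 1.55, 2.32 and 0.687 CPM in primary 5, 7 and 8, and 0.652 CPM in the parental library. All 3 CTC lines lay below every other library for Col1a1. Col1a2, its partner chain, was at 0.629, 0.169 and 1.2 CPM in the metastasis lines, 0.0400, 0.0465 and 0.0915 CPM in the CTC lines, 0.125, 0.579 and 0.192 CPM in the primary lines and 0 in the parental library, again with the CTC lines below the other derived lines. Col3a1, the type III chain, reached 0.325 CPM in metastasis 5 and had no count in any CTC line. Per kb, Col5a1 was 15 to 356 times Col1a1 in the 9 libraries with Col1a1 counts. At these levels, a Col1a1 of 2.32 CPM in primary 7 rests on 176 counts, and the highest Col3a1 on 25.

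The cartilage-type fibrillar chains and the minor fibrillar collagens varied widely. Col11a2 was at 5.09, 0.325 and 14.6 CPM in metastasis 3, 5 and 7, 0.333, 1.38 and 2.88 CPM in CTC 1, 3 and 6, 0.0418, 0.21 and 1.24 CPM in primary 5, 7 and 8, and 28.4 CPM in the parental library. The parental library was highest, metastasis 7 and 3 followed, and primary 5 was lowest, a 678-fold range. Col24a1, a minor chain known from developing bone, was at 14.2, 3.76 and 0.477 CPM in metastasis 3, 5 and 7, 4.56, 11.8 and 0.351 CPM in CTC 1, 3 and 6, 1.3, 0.513 and 0.234 CPM in primary 5, 7 and 8, and 0.198 CPM in the parental library. Metastasis 3 and CTC 3, which share a number in their titles, were its highest libraries. Col2a1, the main cartilage collagen, was at 1.19, 8.78 and 2.77 CPM in metastasis 3, 5 and 7, 0, 0.588 and 0.671 CPM in CTC 1, 3 and 6, 3.61, 1.1 and 0.564 CPM in primary 5, 7 and 8, and 0.708 CPM in the parental library. Col27a1 reached 3.04 CPM (primary 7), Col5a3 1.56 CPM (metastasis 5) and Col11a1 0.0567 CPM.

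Type VI collagen, which builds beaded filaments near basement membranes, needs 3 different chains, and these were unequal. Col6a1 (chr10:76708792-76726168) was at 200.3, 289 and 43.7 CPM in metastasis 3, 5 and 7, 56.3, 159 and 33.2 CPM in CTC 1, 3 and 6, 150.4, 32.6 and 7.86 CPM in primary 5, 7 and 8, and 3.09 CPM in the parental library. All 9 derived lines lay above the parental library, from 7.86 CPM in primary 8 to 289 CPM in metastasis 5. Col6a2, its neighbour 85161 bases away on chromosome 10 and on the same strand, was at 4.86, 20.4 and 2.89 CPM in metastasis 3, 5 and 7, 0.187, 2.68 and 1.1 CPM in CTC 1, 3 and 6, 9.23, 1.92 and 0.179 CPM in primary 5, 7 and 8, and 0.142 CPM in the parental library. Col6a3 reached 15.4 CPM in metastasis 5 and was at or below 0.795 CPM in the other libraries. Per kb, Col6a1 exceeded Col6a2 by 14.1-fold to 291-fold. Metastasis 5 was the library with the highest level of all 3 chains. Pdgfra, a receptor gene on the fibroblast marker list, was at 126, 269 and 11.3 CPM in metastasis 3, 5 and 7, 72.3, 141 and 10.1 CPM in CTC 1, 3 and 6, 58.1, 4.84 and 4.05 CPM in primary 5, 7 and 8 and 4.45 CPM in the parental library, so its 5 highest libraries were the 5 with the highest Col6a1. Gsn, the most abundant gene of that list in every library but metastasis 5, did not follow Col6a1: it was at 126 CPM in metastasis 5 and at 383 and 259.8 CPM in primary 7 and 8. Dcn, another fibroblast marker, reached 12.4 CPM in metastasis 5 and had no count in the parental library. Lum, Dpt, Mfap5, Thy1 and Fap of that list were at or below 0.354 CPM in every library, and the part of such cells in the Col6a1 levels was not tested. Col18a1, the next gene on the same strand (326009 bases from Col6a1), which encodes the basement membrane collagen that releases endostatin, was steady instead, at 340.4, 211 and 248 CPM in metastasis 3, 5 and 7, 424, 354 and 219 CPM in CTC 1, 3 and 6, 416, 359.6 and 315 CPM in primary 5, 7 and 8, and 212 CPM in the parental library, a 2.01-fold range against 93.5-fold for Col6a1.

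Col7a1 (chr9:108953586-108984875), which forms the fibrils that anchor epithelial basement membranes, was at 39.8, 92.3 and 79 CPM in metastasis 3, 5 and 7, 19.4, 40.3 and 39.8 CPM in CTC 1, 3 and 6, 55.9, 371 and 104 CPM in primary 5, 7 and 8, and 162 CPM in the parental library. All 3 CTC lines lay below all 3 primary lines, and primary 7 was highest, as it was for Lama3 and Lamb3. Col17a1, the transmembrane collagen of hemidesmosomes, did not follow them: it reached 4.03 CPM in CTC 3 and was at 1.41 CPM in primary 7. Col8a1, a network-forming collagen of vessel walls, was at 399, 288 and 108 CPM in metastasis 3, 5 and 7, 223, 366 and 211 CPM in CTC 1, 3 and 6, 226, 275 and 259.6 CPM in primary 5, 7 and 8, and 154 CPM in the parental library. Its partner Col8a2 stayed at or below 0.907 CPM.

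Among the collagens that bind to fibril surfaces, Col16a1 was at 19.9, 62.3 and 17.1 CPM in metastasis 3, 5 and 7, 13.7, 109 and 9.24 CPM in CTC 1, 3 and 6, 17.4, 9.12 and 25.3 CPM in primary 5, 7 and 8, and 6.66 CPM in the parental library. CTC 3 and metastasis 5 were highest. Col12a1 was at 5.96, 2.84 and 2.1 CPM in metastasis 3, 5 and 7, 0.227, 4.06 and 1.1 CPM in CTC 1, 3 and 6, 1.59, 14.8 and 6.21 CPM in primary 5, 7 and 8, and 26.2 CPM in the parental library, with the parental library above all 9 derived lines. Col20a1 was at 0.89, 1.67 and 4.59 CPM in metastasis 3, 5 and 7, 0.28, 0.65 and 1.08 CPM in CTC 1, 3 and 6, 0.586, 0.776 and 1.00 CPM in primary 5, 7 and 8, and 8.58 CPM in the parental library, again with the parental library highest. In the parental library Col11a2, Col12a1 and Col20a1 were highest of all 10 libraries, whereas Col6a1, Col6a2, Col24a1 and Col16a1 were lowest. Col14a1 reached 3.38 CPM in CTC 3, and Col9a3 1.57 CPM in the parental library. Of the 24 members that reached 5 CPM, 8 had their highest level in metastasis 5, 6 in metastasis 3, 4 in primary 7, 3 in the parental library, 2 in CTC 1 and 1 in CTC 3. None was highest in metastasis 7, CTC 6, primary 5 or primary 8.

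Whether lines from lung metastases differed from lines from circulating tumour cells was tested with edgeR (quasi-likelihood F-test, Benjamini-Hochberg adjustment over 19935 genes), as were all comparisons here. Fibrillar collagen genes had higher values in the metastasis lines, at low levels and without passing the test: Col1a2 averaged 0.666 ± 0.516 CPM in metastasis and 0.0593 ± 0.0281 CPM in CTC lines, Col1a1 1.55 ± 0.544 and 0.159 ± 0.181 CPM, and Col2a1 4.25 ± 4.01 and 0.42 ± 0.366 CPM (SD, n = 3 each). The log2 change was 3.46 (SE 0.93) for Col1a2, 3.28 (SE 1.11) for Col1a1 and 3.34 (SE 1.39) for Col2a1. Col5a2 and Col3a1 had no count in CTC lines, so that with a floor of 3 counts per library Col5a2 was at least 13.3-fold higher and Col3a1 at least 4.6-fold higher in metastasis lines. Col20a1 had a log2 change of 1.83 (SE 0.70). These 6 had an adjusted p of 1.0 and an unadjusted p under 0.05. Of the 44 tested members, 7 passed the expression filter through 1 group only: Col5a2, Col3a1, Col10a1, Col9a2, Col6a4 and Lama4 through the metastasis lines and Col4a3 through the primary lines. Each of these 7 had to be high in at least 1 line of that group to be tested, so its direction is no result. Col1a2 passed through metastasis and primary lines and through no CTC line, so in this comparison its direction is no result either. No member passed: 0 of 44 tested members were called (smallest adjusted p 1.0), beside 0.00502% of all genes. At an unadjusted p under 0.05, 6 members were higher and 0 lower, beside 1.6% and 1.69% of all genes, and these 6 became 10 without metastasis 3, 3 with a fixed block for the line number (34 members tested) and 3 among genes of 1 CPM or more in 3 libraries (27 members tested). Over the 44, 34 log2 changes were above 0 and 10 below, with a median of 0.88, beside 0.00 over all genes, which was 0.26 without metastasis 5, 0.56 without CTC 1, 0.04 with the fixed block and 0.32 among genes of 1 CPM or more in 3 libraries. Groups were apart for 7 members, all higher in metastasis (Col1a2, Col5a2, Col3a1, Col1a1, Col2a1, Col6a2 and Col27a1), beside 4.43% of genes higher and 3.85% lower. Without the 7 members that passed the filter through 1 group, 4 were at an unadjusted p under 0.05, 5 were apart and the median was 0.49. Col1a2 is still among these 4 and these 5. limma-voom called 0 members, and DESeq2 0, beside 0.145% of all genes. Among members lower in metastasis lines, those with the smallest p were Lamc3, Col18a1 and Col17a1. Lamc3 had no count there and reached 0.279 CPM in CTC 3, and the log2 change was -0.32 (SE 0.30) for Col18a1 and -0.92 (SE 0.91) for Col17a1. Lamc3 passed the expression filter through CTC and primary lines and through no metastasis line, so its direction is no result. Summed fibroblast markers (74.5 to 416 CPM in metastasis and 214 to 463 CPM in CTC lines) overlapped between these groups. Of the fibroblast and the pericyte and smooth muscle markers, only Mmp2 and Acta2 did not overlap. Mmp2 was at 1.40 to 2.67 CPM in metastasis and 0.449 to 1.05 CPM in CTC lines. The smooth muscle marker Acta2 was at 0.524, 0.377 and 0.627 CPM in metastasis 3, 5 and 7 and had no count in the 3 CTC lines. All other markers of both lists overlapped. Gsn, for example, was at 267, 126 and 60.9 CPM in metastasis 3, 5 and 7 and 260, 321 and 202 CPM in CTC 1, 3 and 6. The part of such cells was not tested. Both type I chains rest on at most 176 counts, and reads of these genes counted under an assembled transcript would be missed.

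Against primary lines, metastasis lines had lower levels of Lamb3 and higher mean levels of the fibrillar chains Col11a2 and Col24a1, none past the adjusted threshold. Lamb3 averaged 5.78 ± 7.55 CPM in metastasis and 82.1 ± 89.4 CPM in primary lines (SD, n = 3 each), a log2 change of -3.83 (SE 1.45). The log2 change was 4.62 (SE 1.57) for Col5a2, 3.74 (SE 1.49) for Col11a2, 3.17 (SE 1.39) for Col24a1 and 1.59 (SE 0.69) for Col20a1. These 5 had an adjusted p of 0.594 and an unadjusted p under 0.05. Of them, Col5a2 passed the expression filter through the metastasis lines only, so its direction is no result. Lamc3, with no count in metastasis lines and 0.0836, 0.329 and 0 CPM in primary 5, 7 and 8, was on average at least 3.46-fold lower. Of the groups compared here, Lamc3 passed the expression filter through the primary lines only, so its direction is no result. edgeR called 0 of 44 members (smallest adjusted p 0.594), beside 0.0% of all genes. At an unadjusted p under 0.05, 4 members were higher and 2 lower, beside 3.37% and 4.92% of all genes. The total of 6 became 3 without metastasis 5, 3 without metastasis 7 and 2 without primary 7. It was 5 without the 7 members that passed the filter through 1 group. Groups were apart for 3 members higher (Col5a2, Col3a1 and Lamb2) and 2 lower (Lamb3 and Col4a3), beside 6.38% and 7.27%, and without the 7 members that passed the filter through 1 group these were 1 higher and 1 lower. limma-voom and DESeq2 called 0 members, the second beside 1.02% of all genes. Of the 44, 30 were above 0 and 14 below, with a median log2 change of 0.41 beside 0.01 over all genes. Leaving out 1 line gave medians from 0.00 (metastasis 5) over 0.12 (primary 8) and 0.22 (metastasis 3) to 0.66 (metastasis 7) and 0.73 (primary 5). With the fixed block the median was 0.05, and without those 7 members it was 0.19. Summed epithelial markers were at 1284 to 2932 CPM in metastasis and 2149 to 3868 CPM in primary lines. Of these markers, Epcam was at 30, 21.9 and 47.0 CPM in metastasis 3, 5 and 7 and 56.3, 204 and 134 CPM in primary 5, 7 and 8. The basal keratin gene Krt14 was at 0, 0.052 and 0.682 CPM in metastasis 3, 5 and 7 and 3.23, 78.3 and 9.15 CPM in primary 5, 7 and 8, highest in primary 7 as were Lamb3 and Lama3. Krt8 overlapped between the groups (114 to 1232 CPM in metastasis and 147 to 626 CPM in primary lines). The part of these differences in the lower Lamb3 values was not tested.

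Against primary lines, CTC lines had lower Col7a1, Lamb3 and Col1a1, none past the adjusted threshold. Col7a1 averaged 33.2 ± 11.9 CPM in CTC and 177 ± 169.7 CPM in primary lines (SD, n = 3 each), a log2 change of -2.42 (SE 0.69). The log2 change was -3.31 (SE 1.41) for Lamb3, -3.25 (SE 1.11) for Col1a1 and -2.99 (SE 1.08) for Col27a1. These 4, and Col1a2 and Col9a3, had an adjusted p of 0.994 and an unadjusted p under 0.05. Of the groups compared here, Col1a2 passed the expression filter through the primary lines only. Its direction and its place in the counts below are therefore no result. In the other direction, Col24a1 was at 3.03 (SE 1.38), Col17a1 at 1.43 (SE 0.92) and Col16a1 at 1.35 (SE 0.93), and Col16a1 turned to -0.59 without CTC 3. edgeR called 0 of 44 members (smallest adjusted p 0.994), beside 0.0% of all genes. At an unadjusted p under 0.05, 0 members were higher and 7 lower, beside 1.51% and 2.54% of all genes, and the total of 7 became 2 without CTC 1, 3 without CTC 3, 2 without primary 7 and 4 without primary 8. Over the 44, 15 log2 changes were above 0 and 27 below, with a median of -0.59 beside -0.01 over all genes, which was -0.33 without CTC 1, -0.38 without CTC 6, -0.12 without primary 5, -0.06 without primary 7, -0.03 with a fixed block for the line number and -0.15 among genes of 1 CPM or more in 3 libraries. Groups were apart for 4 members, all lower in CTC lines (Col7a1, Col1a1, Col1a2 and Col9a3), beside 3.13% higher and 4.02% lower. limma-voom and DESeq2 called 0 members, the second beside 0.347% of all genes. In the test of any difference among the 3 derived groups, Col5a2, Col1a2, Col7a1, Col3a1, Lamb3 and Col1a1 had the smallest p (0.00647 to 0.0374). Of these, Col5a2 and Col3a1 passed the expression filter through the metastasis lines only, so their place there is no result. In this test 0 members were called (0.0% of all genes, smallest adjusted p 0.907). At an unadjusted p under 0.05 there were 8 members, beside 5.2% of all genes. These 8 became 4 without metastasis 5, 4 without CTC 1 and 3 without primary 7. Without the 7 members that passed the filter through 1 group, 6 were at an unadjusted p under 0.05. DESeq2 and limma-voom called 0, DESeq2 beside 0.734% of all genes.

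**Figure D4:**
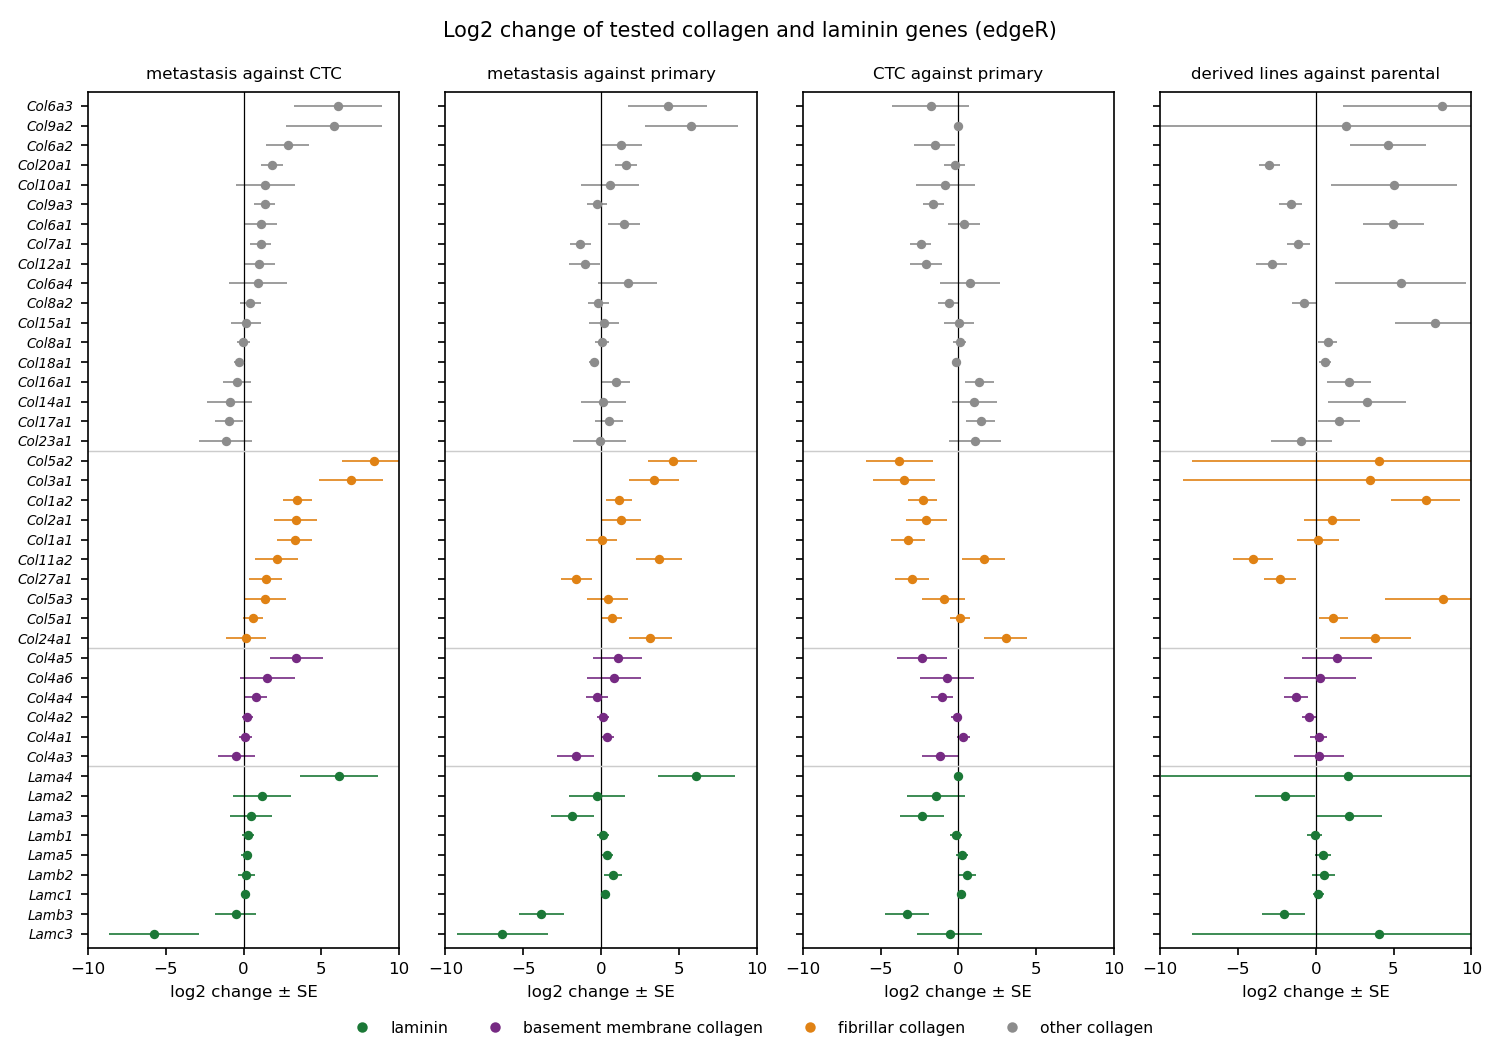
Log2 change with its standard error (edgeR) of tested genes in 4 comparisons, ordered within each class by metastasis against CTC. Bars cut by the frame run on beyond it, and a gene with no count in a group (Col5a2 in CTC lines, for example) has a fitted change that depends on the prior count. Lamb3 lies left of 0 in metastasis and in CTC against primary lines.

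Set against the parental line, derived lines had more Col6a1 and less Col20a1, Col11a2 and Col12a1, with no call by edgeR. Col6a1 averaged 108 ± 96 CPM in the 9 derived lines (SD, n = 9) and 3.09 CPM in the parental library, a log2 change of 4.98 (SE 1.97). Col20a1 averaged 1.28 ± 1.3 CPM in derived lines against 8.58 CPM in the parental library, a log2 change of -2.99 (SE 0.68). The log2 change was -4.04 (SE 1.3) for Col11a2 and -2.84 (SE 1.01) for Col12a1. Col1a2 and Col15a1, a collagen of basement membrane zones, had no count in the parental library and were at least 8.03-fold and at least 8.41-fold higher in derived lines. These 6 had adjusted p-values between 0.404 and 0.482 and an unadjusted p under 0.05. Of them, Col1a2 and Col15a1 passed the expression filter through derived lines only. Their direction and their place in the counts below are therefore no result. edgeR called 0 of 44 members (smallest adjusted p 0.404), beside 0.0201% of all genes. DESeq2, which called 4.33% of all genes, called 2 members, Col6a1 (log2 change 4.97, adjusted p 0.00702) and Col20a1 (-3.00, adjusted p 0.0295), and limma-voom called 0. At an unadjusted p under 0.05, 3 members were higher and 3 lower, beside 5.87% and 4.45% of all genes. All 9 derived lines lay above the parental library for 6 members (Col1a2, Col15a1, Col6a1, Col6a2, Col24a1 and Col16a1) and below it for 7 (Col20a1, Col11a2, Col12a1, Col9a3, Col4a4, Lama2 and Col8a2), beside 14.1% and 15.4% of all genes. The parental line has 1 library, assumed to vary like the derived lines, so what is particular to that library and what is particular to the line cannot be told apart. Over the 44, 30 log2 changes were above 0 and 14 below, with a fitted median of 0.67 and a median of 0.48 with genes at 0 in a group at their bounds, beside 0.10 over all genes.

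The deposited transcript table adds which form of a gene was counted, with forms named and placed by GENCODE M21 (GRCm38). These shares come from the authors' estimated counts, and how reads common to several transcripts were divided is not stated. For Lamb1, the form that starts at chr12:31265293 (Lamb1-201, 33 exons) held 47.6%, 55.9% and 59.7% of the gene's count in metastasis 3, 5 and 7, 57.3%, 57.8% and 41.0% in CTC 1, 3 and 6, 87.0%, 88.5% and 38.6% in primary 5, 7 and 8 and 93.1% in the parental library. The other form (Lamb1-205, 34 exons) starts 59 bases upstream and took nearly all the rest, so primary 5 and 7 and the parental library stood apart from the other 7 libraries on deep counts (12714 or more of Lamb1-201 in every library). Lamb3 was counted as a short form (Lamb3-201, from chr1:193301993) at 81.5% to 100% in 8 libraries. In metastasis 3 and 5, where Lamb3 was at 1.09 and 1.76 CPM, it was counted as Lamb3-209, whose first exon lies upstream at chr1:193207725, at 98.8% and 100% of 83 and 135 counts. Lama3 was counted as its long form Lama3-201 in 9 libraries (98.6% or more) and as the short epithelial form Lama3-202 at 86.1% in primary 7, so the higher Lama3 level of that line belongs to a form hardly counted elsewhere. Col16a1-210, which begins inside the gene (chr4:130055990, 61 exons against 70 for Col16a1-201), held 79.4% in metastasis 5, 82.1% in CTC 3 and 75.3% in primary 8, the 3 libraries with the highest Col16a1, and 3.61% to 36.0% in the others. Col12a1 was counted as Col12a1-201 at 93.0% or more in 9 libraries and as Col12a1-202 at 93.3% in primary 7. These 5 genes were picked with their shares in view, and the shares were not tested.

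**Figure D5:**
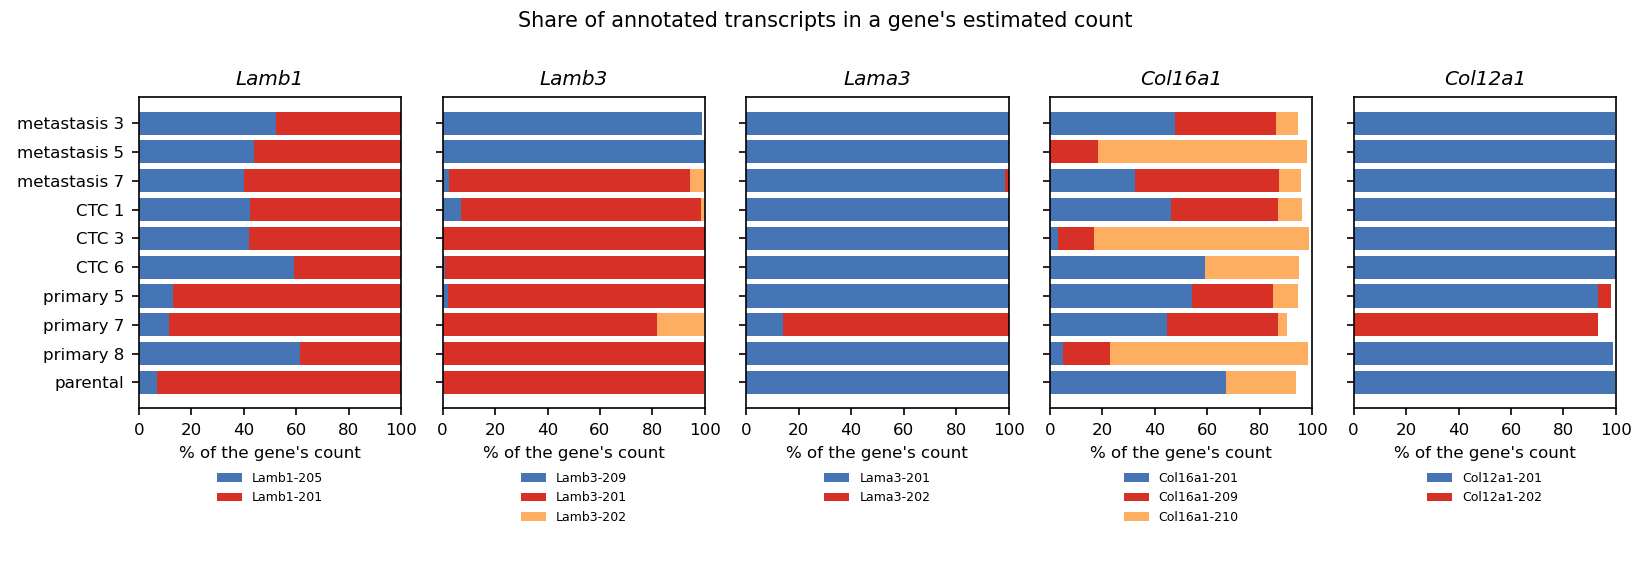
Share of each annotated transcript in the estimated count of 5 genes, in percent, 1 bar per library; transcripts that never reached 100 counts are left white. Primary 5 and 7 and the parental library hold the most Lamb1-201, and primary 7 stands apart for Lama3 and Col12a1.

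The genes that make, cut and bind collagens and laminins were read from 4 lists. Over all genes the median log2 change was 0.01 in metastasis against primary, -0.01 in CTC against primary and 0.10 in derived lines against parental. Of 24 genes of collagen synthesis and secretion, 23 were tested, and 0 were called by edgeR in any comparison. Between metastasis and primary lines 15 were higher and 8 lower (median log2 change 0.13), and P4ha2, a subunit of prolyl 4-hydroxylase, averaged 20.2 ± 13.9 CPM in metastasis, 5.66 ± 2.08 in CTC and 17 ± 2.68 in primary lines (SD, n = 3 each) and was at 3.47 CPM in the parental library. All 3 CTC lines lay below all 3 primary lines for P4ha2 (log2 change -1.59, SE 0.52, adjusted p 0.994), although 16 of the 23 genes were higher and 7 lower in that comparison (median log2 change 0.23). Of 15 genes of procollagen cleavage and cross-linking, 11 were tested, with 8 higher and 3 lower in metastasis than in primary lines and 9 higher and 2 lower in derived lines than in parental. Pcolce, which speeds removal of the procollagen C-terminal piece, was at 447, 358 and 167 CPM in metastasis, 311, 545 and 78.3 CPM in CTC and 289, 66.2 and 64.4 CPM in primary lines and 2.25 CPM in the parental library. Loxl4, a lysyl oxidase, was at 72.8, 68.5 and 87.5 CPM in metastasis, 97.2, 99.6 and 229 CPM in CTC and 118, 211 and 287 CPM in primary lines and 488 CPM in the parental library. edgeR called neither for derived lines against parental (adjusted p 0.452 for Pcolce and 0.441 for Loxl4), and DESeq2 called both in that comparison. Of 16 other basement membrane genes, 14 were tested, with 8 higher and 6 lower in metastasis than in primary lines, and Fbln2, which binds laminins, averaged 175 ± 55.9 CPM in metastasis, 159 ± 106 in CTC and 415 ± 177 in primary lines (SD, n = 3 each). Of 17 receptor genes, 16 were tested, with 9 higher and 7 lower in metastasis than in primary lines, and Itga2, the alpha2 chain of a collagen- and laminin-binding integrin, averaged 21.9 ± 3.07 CPM in metastasis, 42.6 ± 40.4 in CTC and 98.8 ± 39.4 in primary lines (SD, n = 3 each). Its log2 change between metastasis and primary lines was -2.18 (SE 0.63, adjusted p 0.594). DESeq2 called Fkbp10, a chaperone of collagen folding, between metastasis (5.74 ± 6.78 CPM) and primary lines (0.332 ± 0.419 CPM, SD, n = 3 each), beside 1.02% of all genes. Between derived and parental lines it called Crtap, P3h3, Pcolce, Loxl4, Npnt and Itga1, beside 4.33% of all genes.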

How the data were processed

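RNA of 10 cell lines was measured by paired-end RNA-seq, 1 library each. The authors deposited estimated counts per gene and per transcript, all whole numbers. HISAT2 2.1.0, StringTie 2.0.3 and DESeq2 1.26.0 with GRCm38 are named per the submitters' processing notes, without their settings. The annotation release, the use of strand and the model behind assembled transcripts are not given in the sources used here, so overlapping genes are uncertain. The labels name both polyA RNA and a total RNA kit. Entries of assembled transcripts without a gene name took 19.7% to 22.8% of the counts, so reads of a gene can be missing from its named row. Of the transcript entries, 1 with values in 1 column only was left out, and no column of another sample was used.

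Members and gene lists were chosen with earlier results of these data known. Libraries were scaled by TMM, genes were kept by edgeR's default expression filter (19935 of 55417 named genes), and 3 comparisons between derived groups, 1 test of any difference and 1 of derived lines against parental were fitted over all 4 groups with edgeR 4.0.16 (quasi-likelihood, common coefficient of variation 0.606) in R 4.3.3. Its standard error was the size of the log2 change over the square root of F. A call is an adjusted p under 0.05. Results of 1 member are not reported here, though counts and sums include it. The spread measured is that between lines, and the 1 parental library is assumed to vary like the others. limma 3.58.1 (voom) and DESeq2 1.42.0, other scalings and filters, and leaving out each line were alternatives. Named in each comparison were the 3 members with the smallest p in each direction, members at an unadjusted p under 0.05, and members of 5 CPM or more with their levels. A fold called "at least" uses 3 counts per library for a group at 0. This floor covers counting error only, while the standard errors of log2 changes include the spread between lines. Levels per kb divide each transcript's CPM by its length in GENCODE M21, whose build also gives positions. On simulated data for metastasis against primary with 19935 genes, the script recovered 10% of log2 changes of 2 and 60% of those of 4.

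The reported fits have no block, and the number in the line titles entered as a block in an alternative only. Deviations from group means correlated at 0.406 (metastasis 3 and CTC 3), 0.319 (metastasis 5 and primary 5) and 0.12 (metastasis 7 and primary 7), beside a median of -0.0491 over other pairs, though metastasis 7 and CTC 6 reached 0.506. What the numbers stand for is not given in the labels.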

Additional observations from a re-analysis of the deposited data

Results flagged for a closer look

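In 3 genes, Col1a1 in 2 pairs of groups, every line of one derived group lay above the parental library and every line of another below it. The genes were chosen for this pattern, which 3 of the 44 tested members (6.82%) and 2.98% of all 19935 tested genes show. No derived group was tested alone against the parental library, and some lines lay close to it: Col1a1 was at 0.687 CPM in primary 8 and Col4a3 at 0.0545 CPM in metastasis 7. Col1a1 averaged 1.55 CPM in metastasis lines and 0.159 CPM in CTC lines, with 0.652 CPM in the parental library. It also averaged 1.52 CPM in primary lines, against the same CTC and parental values. Col2a1 averaged 4.25 CPM in metastasis and 0.42 CPM in CTC lines, with 0.708 CPM in the parental library. Col4a3 averaged 0.0399 CPM in metastasis and 0.127 CPM in primary lines, with 0.0567 CPM in the parental library, on 11 counts at most. It passed the expression filter through the primary lines only, so its direction and its place among the 3 are no result. Each direct difference was tested by edgeR between the derived groups, and none passed (adjusted p 1.0 for Col1a1 and Col2a1 in metastasis against CTC, 0.994 for Col1a1 in CTC against primary, and 0.671 for Col4a3 in metastasis against primary).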

How the results depend on the processing

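Of 976 values recomputed under the alternatives, 939 kept their direction and their side of the threshold or stayed near their value. A median was counted as kept if its sign held, and a count of 0 calls if it stayed 0. This total therefore does not measure how steady the sizes were. The median log2 change in metastasis against primary, for example, went from 0.41 to 0.0006 without metastasis 5 and was counted as kept. edgeR and limma-voom called 0 members in every comparison under every setting run, and DESeq2 called 2 between derived and parental lines (Col6a1 at 4.97 and Col20a1 at -3.00 on the log2 scale). Among 502 values of 29 named log2 changes, 1 turned round: Col16a1 in CTC against primary lines was -0.59 without CTC 3, and leaving out 1 line gave -0.59 to 1.83. With the line number as a replicate block, no call changed: the smallest adjusted p for metastasis against primary was 0.321 with a fixed block, which left 34 members and 1 residual degree of freedom, and 0.137 with a random block in limma-voom. Leaving out 1 line gave 2 to 6 members at an unadjusted p under 0.05 in metastasis against primary, 2 to 9 in CTC against primary, 5 to 10 in metastasis against CTC and 6 to 9 in derived lines against parental. Without division by length, laminins held 56.5%, 57.1% and 58.8% of the summed level in metastasis, CTC and primary lines and 58.7% in the parental library. Under the filter of 1 CPM in 3 libraries 27 members were tested, and without a filter the median log2 change of all genes against parental moved to 0.36. The cause of these moves was not tested. With 3 lines a group and a coefficient of variation of 0.606, differences of 4-fold were mostly missed on simulated data, and members under 1 CPM rest on few counts.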
